A study of Canis lupus familiaris with 33 samples.

Results

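The CCR4 ligand axis was described in canine invasive urothelial carcinoma (iUC) as 4 genes: the chemokine receptor gene CCR4, its ligand genes CCL17 and CCL22, and IL2RA, the alpha chain of the interleukin-2 receptor. These are the 4 of 25096 genes in the TMM-normalized table whose symbol is one of those names, and each had a single row. The study sequenced RNA from 29 iUC tumors and 4 normal bladder mucosa samples. The tumors were high-grade cystoscopic biopsies from dogs that had received no treatment, with 1 biopsy for each of 29 dogs of any age, sex or breed. For the normals, the urothelial layer was dissected from bladders of dogs put down for conditions outside the bladder, and ages and breeds are not given in the sources used here. By the study's account, nearly all cells of each tumor sample were epithelial. A biopsy is still a mixture of cells, so for all values that follow, fewer cells of a type and less RNA per cell cannot be told apart.

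CCR4 is a receptor on the surface of regulatory T cells and type 2 helper T cells, and its ligands CCL17 and CCL22 attract cells that carry it. CCL22 is made mainly by macrophages and dendritic cells, and CCL17 also by epithelial and other tissue cells. IL2RA (CD25) gives the interleukin-2 receptor its high affinity and is carried at high levels by regulatory T cells and by T cells soon after activation. Through this axis, tumors can draw in regulatory T cells, which restrain other lymphocytes, and antibodies against CCR4 have been studied in dogs with urothelial carcinoma. FOXP3, CTLA4 and IKZF2, which mark regulatory T cells, were not analysed here, nor were CD4, IL2RG and LAMP3. The name of the axis could therefore not be checked against the defining genes of regulatory T cells, and the 4 genes are described by their own symbols.

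Each value is on the log2 scale and centred on the gene's median over the 33 samples, so differences between samples can be read but levels cannot be compared between genes. A tumor had 3699 to 8175 genes at their lowest value, against 755 to 1019 in a normal. Of 137 olfactory receptor genes, which are not expected to be active in bladder, all lay above the lowest value in every normal, and 7.30% to 92.0% did in a tumor (median 21.2%). Only 4 of 6 smooth muscle markers were measured. Their mean log2 value was 5.30 to 7.28 in the normals and -1.19 to 4.07 in the tumors, and all 4 were lower in tumors. The 5 urothelial markers measured averaged -1.92 to -0.52 in the normals and -2.05 to 0.79 in the tumors. Tumors are numbered in the order of deposit.

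The first question was whether the axis differed between tumor and normal mucosa. CCL22 and CCR4 were lower in tumors, CCL17 was higher, and IL2RA did not pass the test. In the limma fit over 24471 genes, 10.7% of all genes were called higher in tumors and 45.8% lower, with thresholds of 0.05 for the adjusted p and 2-fold for the change. The median log2 change of all tested genes was -0.84. A call of lower was thus common, while a call of higher was not.

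**Figure D1:**
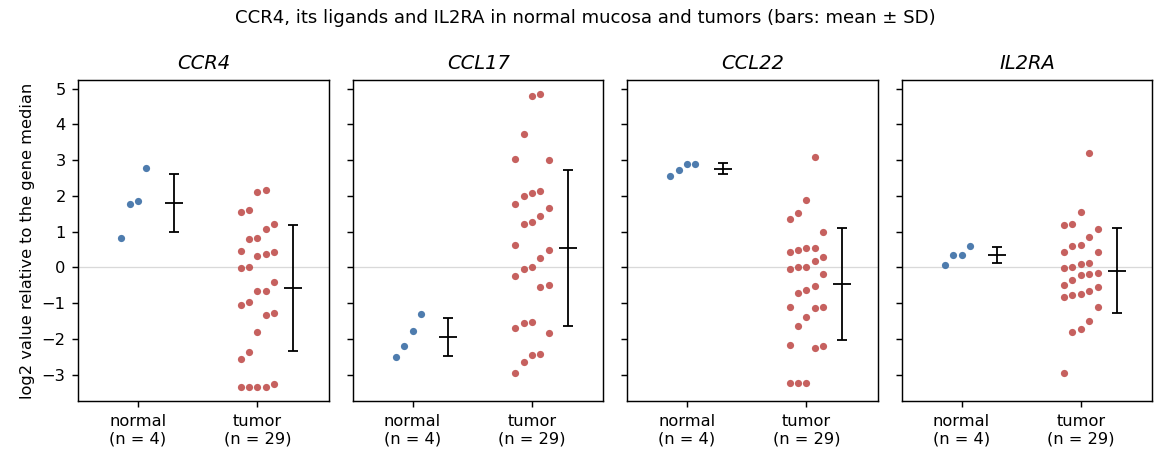
Log2 value relative to the gene median (vertical axis) of CCR4, CCL17, CCL22 and IL2RA in the 4 normals (blue) and 29 tumors (red); each point is a sample and the bars are the mean ± SD. For CCL22, 28 tumors lie below every normal; for CCL17, 21 tumors lie above every normal; for IL2RA, the tumors surround the normals.

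CCR4, the receptor, had log2 values of 2.79, 1.76, 0.82 and 1.85 in normals A to D. In the tumors it ran from -3.34 to 2.15, with a median of -0.41, and 4 tumors were at the lowest value. No tumor lay above the highest normal, 22 lay below every normal and 7 lay within the normals' range. The log2 change was -2.38 (standard error 0.87, adjusted p = 0.0149), which is 5.22-fold lower. Without normal A, which had the highest value, the change was -2.06 with an adjusted p of 0.0695, so the call rested on that sample. An exact two-sided permutation test of the means gave p = 0.0106, and of the medians p = 0.0799.

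CCL22 was the member with the widest separation. Its values in normals A to D were 2.88, 2.71, 2.88 and 2.57. The tumors ran from -3.24 to 3.08, with a median of -0.17 and 3 tumors at the lowest value. Tumor 20 was the single tumor above the normals, and the other 28 lay below all of them. By limma the log2 change was -3.23 (standard error 0.77, adjusted p = 0.000383), or 9.35-fold lower, and the call held without each normal and each tumor in turn. The exact permutation test of the means gave p = 0.000196.

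CCL17, the other ligand, moved the opposite way. Normals A to D had values of -1.30, -1.77, -2.21 and -2.52, near the bottom of the tumor range. The tumors ran from -2.96 to 4.84 with a median of 0.49, a span of 7.80 on the log2 scale. That span was the widest of the 4 genes, although those of CCR4 and CCL22 were cut off at a shared lowest value. Above every normal lay 21 tumors, 6 lay within the normals' range and 2, tumors 8 and 9, lay below it. The log2 change was 2.50 (standard error 1.07, adjusted p = 0.0372), or 5.64-fold higher, and it exceeded the change of 99.2% of all tested genes. The call did not hold in the DESeq-normalized table (log2 change 2.20, adjusted p = 0.0685) or without any 1 of the 4 normals (adjusted p = 0.0531 to 0.101). Its exact permutation p was 0.0304 for the means and 0.0657 for the medians.

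IL2RA had values of 0.34, 0.36, 0.07 and 0.61 in normals A to D and ran from -2.95 to 3.21 in the tumors, with a median of -0.16. Of the tumors, 7 lay above every normal, 17 below and 5 within their range. The log2 change of -0.44 (standard error 0.59, adjusted p = 0.512) was smaller in size than its standard error and did not pass the test. The SD was 1.19 over the 29 tumors and 0.22 over the 4 normals.

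Because several samples share a lowest value for CCR4 and CCL22, their levels could be expressed in read pairs. Read pairs are not normalized between samples, and 1 pair was worth a median normalized value of 3.24 in normals and 2.06 in tumors. The median normalized value of CCR4 was 35.4 in normals and 7.61 in tumors, and that of CCL22 was 65.8 and 8.38. Overlap of the groups in read pairs is therefore not overlap in normalized values. CCR4 amounted to 6.14 to 20.2 read pairs in the normals (median 10.7) and to at most 20.5 in the tumors (median 3.49), and 14 of 29 tumors had 3 or fewer. CCL22 amounted to 15.4 to 24.02 read pairs in the normals (median 20.3) and to at most 32.3 in the tumors (median 4.23), again with 14 of 29 tumors at 3 or fewer. A whole count of 3 has an exact 95% Poisson interval of 0.619 to 8.77 and a count of 4 one of 1.09 to 10.2, and such intervals cover counting error only. Single tumors with low values therefore could not be ranked for these genes. CCL17 and IL2RA had no shared lowest value, and their depth is unknown.

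Olfactory receptor genes moved together with these 2 falls. The middle gene of the 133 olfactory receptor genes with a shared lowest value had 14.8 to 20.3 read pairs in a normal, a range that overlaps those of CCL22 and CCR4. In 25 of 29 tumors it was at the lowest value, so no number of read pairs could be given, and in the other 4 it had 1.00 to 3.00. Of 137 such genes tested, 136 were called lower in tumors, with a median log2 change of -5.35, against -2.38 for CCR4 and -3.23 for CCL22. Among the 9838 tested genes with a shared lowest value, 86.2% were called lower and 0.407% higher. Among the 14633 genes without one, the class of CCL17 and IL2RA, 18.6% were called lower and 17.6% higher. The part of this signal in the CCR4 and CCL22 results was not tested. Without the 3 tumors that had over 75% of olfactory receptor genes above their lowest values, the log2 change was -2.37 for CCR4, -3.31 for CCL22 and 2.42 for CCL17, with adjusted p of 0.0157, 0.00037 and 0.0536 by limma.

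**Figure D2:**
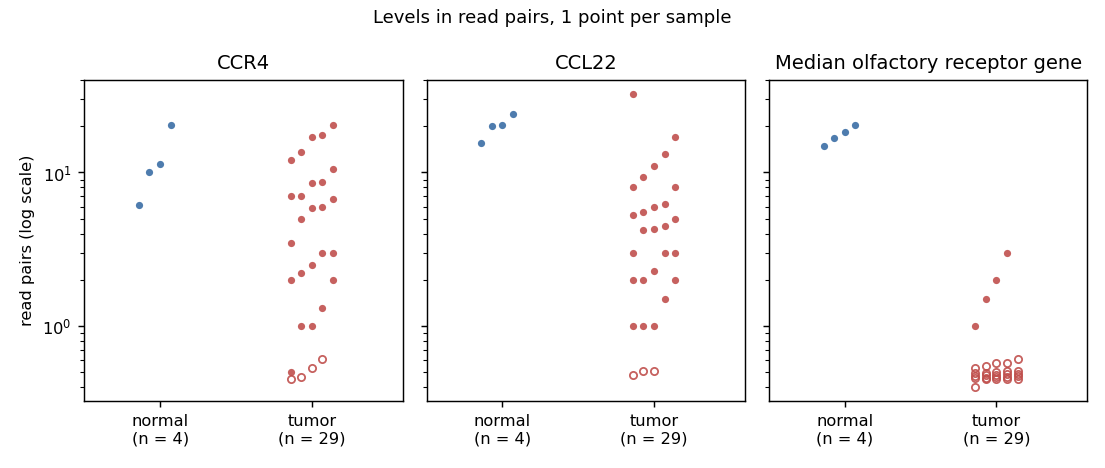
Level in read pairs (vertical axis, log scale) of CCR4, of CCL22 and of the median olfactory receptor gene, with 1 point for each of 4 normals (blue) and 29 tumors (red). The normals have 6.14 to 20.2 read pairs for CCR4, 15.4 to 24.02 for CCL22 and 14.8 to 20.3 for the median olfactory receptor gene. Hollow points are samples at the lowest value, plotted at the worth of that value and not at a measured level. Read pairs are not normalized between samples, and 1 pair was worth more in the normals.

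T-cell content was then considered, since CCR4 and IL2RA are carried by T cells. The mean of 14 T-cell genes was 0.17 to 0.66 in the normals and -1.94 to 2.77 in the tumors (difference -0.42, exact permutation p = 0.499). Set against that mean within each sample, CCR4 differed between tumors and normals by -1.97 on the log2 scale (exact permutation p = 0.00203) and CCL22 by -2.81 (exact permutation p = 0.00154). Tested genes with a shared lowest value, the class of CCR4 and CCL22, had a median log2 change of -3.24. How many of that class would pass this test was not examined, so these p-values do not set CCR4 and CCL22 apart from it. The relative difference of CCL17 was 2.92 (exact permutation p = 0.0359), with p = 0.0618 when 5 T-cell genes were used and p between 0.055 and 0.103 without each normal. For IL2RA it was -0.02 (exact permutation p = 0.9748). These 4 tests were two-sided and unadjusted.

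Among the T-cell genes themselves, 13 of 14 did not pass the limma test between tumor and normal. The log2 change was -0.11 for CD3E, a chain of the T-cell receptor complex, and -0.82 for CD8A of cytotoxic T cells, and neither passed. No T-cell gene was called higher by limma, and 0 had an unadjusted p under 0.05 in that direction. The median change of the list was -0.45, beside -0.84 for all genes.

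Over all tested genes, 10.7% were called higher and 45.8% lower. Of the regulatory T-cell genes measured, 16 of 24 on the list, 2 rose, 4 fell and 10 did not pass. The risers were PRDM1 (log2 change 1.46, adjusted p = 0.00926), which encodes the transcription factor BLIMP1, and the tumor necrosis factor receptor gene TNFRSF1B (1.35, adjusted p = 0.0136). TNFRSF9, the activation receptor 4-1BB, fell by 3.54, the orphan receptor gene GPR83 fell by 3.14 and CCR8, a chemokine receptor of tumor regulatory T cells, fell by 2.64, with adjusted p of 0.000859, 0.00191 and 0.00107. IKZF4 was the other gene that fell (log2 change -1.29). TNFRSF18, which encodes GITR, had a log2 change of 0.03 (adjusted p = 0.969). The median of the list was -0.33. Like CCR4 and CCL22, CCR8 and TNFRSF9 had tumors at the lowest value, 3 and 9 of 29.

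The interleukin-2 receptor pathway, in which IL2RA acts with IL2RB and a shared gamma chain to signal through JAK1, JAK3 and STAT5, was described by 23 measured genes. Of these, 2 rose, 3 fell and 18 did not pass, with a median log2 change of 0.19 (all tested genes: 10.7% higher, 45.8% lower). SOCS3, a feedback inhibitor of cytokine signaling, rose by 1.92 (adjusted p = 0.00203) and IL4R, the interleukin-4 receptor, by 1.50 (adjusted p = 1.07e-05). IL2, the ligand, fell by 4.03 (adjusted p = 4.36e-07), although 16 of 29 tumors were at its lowest value. BCL2, a survival gene, fell by 1.11 (adjusted p = 0.00548). STAT5A and STAT5B had log2 changes of 0.99 and 0.68 (adjusted p = 4.8e-06 and 0.00152), which stayed under the 2-fold threshold. IL2RB had a log2 change of -1.34 (adjusted p = 0.0957) and JAK3 one of -0.20 (adjusted p = 0.698).

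CCR4 was compared with the other chemokine receptors. Of 16 measured, 1 rose, 6 fell and 9 did not pass, with a median log2 change of -1.02 (all tested genes: 10.7% higher, 45.8% lower). CXCR6 rose by 1.50 (adjusted p = 8.51e-06). ACKR2, a decoy receptor that also binds CCL17 and CCL22, fell by 4.51 (adjusted p = 5.85e-05) and CCR9 by 4.17 (adjusted p = 1.43e-07), with 4 and 3 of 29 tumors at the lowest value. ACKR2 and CCR9 were named as the 2 largest falls of the list. The fall of CCR4 by 2.38 lay between theirs and the list median, and the difference between genes was not tested. CCR7, the receptor of naive T cells and migrating dendritic cells, had a log2 change of -0.82 (adjusted p = 0.186).

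Mature dendritic cells are a source of both ligands. Of 23 listed genes, 16 were measured. Among them 3 rose, 3 fell and 10 did not pass, with a median log2 change of 0.16 (all tested genes: 10.7% higher, 45.8% lower). IDO1, which degrades tryptophan, rose by 2.58 (adjusted p = 0.0234) and MARCKSL1 by 1.78 (adjusted p = 0.00712). CCL19, the ligand of CCR7, fell by 2.22 (adjusted p = 0.0121), and BATF3, a factor of cross-presenting dendritic cells, by 1.55 (adjusted p = 0.0258). The macrophage marker CD68 rose by 1.95 (adjusted p = 7.29e-06), and the other 4 macrophage markers did not pass. The B-cell markers MS4A1 and PAX5 fell by 2.96 and 3.40 (adjusted p = 0.0402 and 0.000326), with 5 of 7 markers of B and plasma cells not passing. MS4A1 had 4 and PAX5 11 of 29 tumors at the lowest value. None of the 4 endothelial markers was called by limma, and 0 had an unadjusted p under 0.05.

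Interleukin-4 and interleukin-13, acting through IL4R and STAT6, are known inducers of CCL17 and CCL22. On the type 2 helper list, 3 of 12 measured genes rose, 7 fell and 2 did not pass. Over all tested genes 10.7% were called higher and 45.8% lower, and 86.2% lower among those with a shared lowest value. IL1RL1, the receptor of interleukin-33, rose by 2.62 (adjusted p = 0.0102), IL4R as above and STAT6 by 1.38 (adjusted p = 1.13e-07). The cytokine gene IL4 fell by 3.46 (adjusted p = 8.07e-08) and TNFSF4, the OX40 ligand, by 3.18 (adjusted p = 1.92e-05). Of the cytokine genes that fell, IL25, TNFSF4, IL13 and IL4 had 24, 19, 17 and 11 of 29 tumors at the lowest value, TSLP had 3 and IL5 had 2, while IL4R and STAT6 had none.

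Co-variation over the 29 tumors was examined next, without the normals. Every correlation of the 4 genes with each other, with 4 sample measures and with 120 list genes entered 1 family of 502, in which Benjamini-Hochberg adjustment was made. CCL22 and IL2RA were correlated over all tumors, CCR4 and IL2RA missed the threshold by r and passed it by rho, and CCL17 was not detectably related to any of the other 3.

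For CCL22 and IL2RA, Pearson's r was 0.571 (permutation p = 0.00088, adjusted p = 0.00614), while Spearman's rho was 0.452 (permutation p = 0.014, adjusted p = 0.0498). This r was higher than that of CCL22 with 99.7% of 24088 genes and than that of IL2RA with 97.7%, and the rho was higher than 98.5% and 94.8%. Tumor 20 had the highest value of both genes, and without it r was 0.445 (adjusted p = 0.0553). Tumor 20 was farthest from the CCL22 median, and tumors 6, 16 and 24 tied for the next place. Without tumors 20 and 6, the first in order of deposit, r was 0.323 (permutation p = 0.101, adjusted p = 0.289). With the other choices it was 0.439 without tumors 20 and 24 (adjusted p = 0.0934) and 0.547 without tumors 20 and 16 (adjusted p = 0.0189), so whether the relation passed depended on the choice. With the mean of the 14 T-cell genes regressed out of both, r was 0.441 (adjusted p = 0.0511).

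CCR4 and IL2RA had r = 0.402 (permutation p = 0.0298, adjusted p = 0.0805) and rho = 0.481 (permutation p = 0.00898, adjusted p = 0.0355). Tumors 3 and 15 had CCR4 at its lowest value with IL2RA above the normals' median. Tumors 3, 15, 17 and 29 tied as farthest from the CCR4 median. Without tumors 3 and 15, the first in order of deposit, r was 0.554 (permutation p = 0.0025, adjusted p = 0.0196), and over the 6 choices of 2 tumors it ran from 0.377 to 0.554 (adjusted p = 0.0196 to 0.177). Over tumors in which CCR4 was above its lowest value, r was 0.568 (adjusted p = 0.0133). With the T-cell mean regressed out of both, r was -0.232 (permutation p = 0.228, adjusted p = 0.384).

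CCR4 and its ligands were not called over all tumors. CCR4 with CCL22 had r = 0.298 (95% interval -0.0769 to 0.599, permutation p = 0.117, adjusted p = 0.232) and rho = 0.304 (permutation p = 0.109, adjusted p = 0.233), and r from 0.362 to 0.395 over the 6 choices of 2 tumors left out. Over the 22 tumors with both genes above the lowest value, r was 0.554 (adjusted p = 0.0283), and with the T-cell mean regressed out of both it was -0.0251 (adjusted p = 0.945). CCR4 with CCL17 had r = 0.076 (95% interval -0.299 to 0.430, permutation p = 0.693, adjusted p = 0.815) and rho = 0.0592 (permutation p = 0.758, adjusted p = 0.853), and r from 0.0510 to 0.135 over those choices. These intervals, from Fisher's transformation, leave room for moderate correlations.

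The ligands were not detectably related to each other. CCL17 and CCL22, which lie on chromosome 2 with only CX3CL1 between them among protein-coding genes, had r = 0.0681 (95% interval -0.306 to 0.424, permutation p = 0.726, adjusted p = 0.841) and rho = 0.151 (permutation p = 0.433, adjusted p = 0.623). Without the 2 tumors farthest from the CCL17 median r was 0.140. CCL17 with IL2RA had r = -0.132 (95% interval -0.475 to 0.247, permutation p = 0.498, adjusted p = 0.683) and rho = -0.111 (permutation p = 0.563, adjusted p = 0.726), and r = -0.0417 without those tumors.

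**Figure D3:**
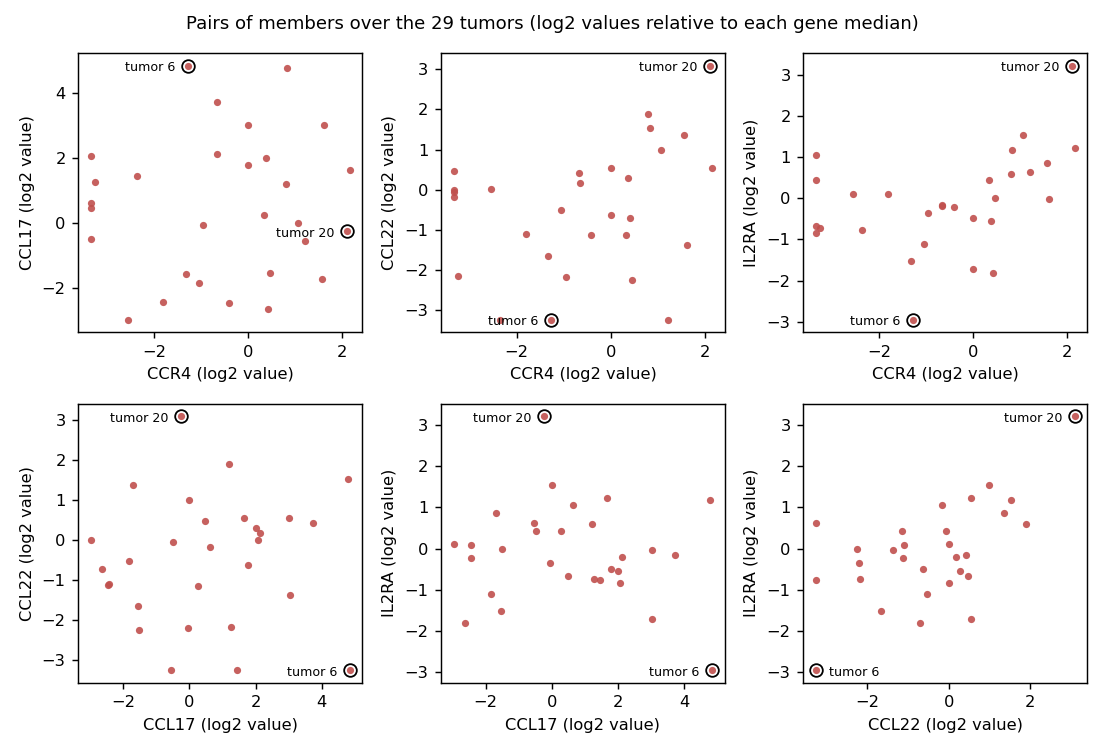
Log2 values of each pair of members in the 29 tumors (1 point per tumor), relative to each gene median, with tumors 6 and 20 circled. Tumor 20 is highest for CCL22 and IL2RA; tumor 6 is highest for CCL17 and lowest for IL2RA, with CCL22 at its lowest value.

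Single tumors combined the genes in different ways. Tumor 20 ranked 1st of 29 for IL2RA (log2 value 3.21) and CCL22 (3.08) and 2nd for CCR4 (2.10), but 19th for CCL17 (-0.24). Tumor 6 was the reverse for the ligands, with the highest CCL17 (4.84), CCL22 at the lowest value and the lowest IL2RA (-2.95). Tumor 26 ranked 2nd for CCL17 (4.79), 3rd for CCL22 (1.52), 4th for IL2RA (1.18) and 7th for CCR4 (0.82). Its CCL22 value still lay below every normal. Tumor 9 had the lowest CCL17 (-2.96) and 1.00 read pair of CCR4. Tumor 23 ranked 3rd for CCR4 (1.62) and 4th for CCL17 (3.03) with CCL22 at -1.37.

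CCR4 followed the T-cell genes. Its r with the mean of the 14 T-cell genes was 0.768 (permutation p = 1e-05, adjusted p = 0.000386) and its rho 0.806 (permutation p = 1e-05, adjusted p = 0.000456), where 1e-05 is the smallest p the permutations can give. Over the 6 choices of 2 tumors farthest from the CCR4 median, r ran from 0.735 to 0.758. All 14 T-cell genes were called positive with CCR4, with r from 0.452 to 0.8005, beside 3.29% of all genes at the same p. The 5 genes with the highest rho over the tumors, among 10962 genes with a symbol, were TRAF3IP3 (0.871), CD3G (0.849), GRK3 (0.849), TRBV16 (0.838) and PTPRC (0.833). CD3G is a chain of the T-cell receptor complex, TRBV16 a segment of the receptor's beta chain and PTPRC the leukocyte antigen CD45.

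Other leukocyte genes rose with CCR4 too. Called positive were 6 of 16 regulatory T-cell genes, 8 of 23 genes of the interleukin-2 receptor pathway, 9 of 16 chemokine receptors, 6 of 7 markers of B and plasma cells and 4 of 5 macrophage markers. IL10, an inhibitory cytokine, had r = 0.620 (adjusted p = 0.00355) and GPR83 r = 0.674 (adjusted p = 0.000558). The B-cell gene MS4A1 had r = 0.674 (adjusted p = 0.001), close to the value of GPR83. CCR8 had r = 0.176 (adjusted p = 0.553) and TNFRSF18 r = 0.401 (adjusted p = 0.0805), and neither passed. IL25 was the only list gene called negative (r = -0.440, adjusted p = 0.0475), with 24 of 29 tumors at its lowest value. It was not called in the DESeq-normalized table (r = -0.428) or in any of the 6 choices of 2 tumors left out (r from -0.473 to -0.229, adjusted p = 0.0611 to 0.509).

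IL2RA also followed T-cell genes. Its r with their mean was 0.668 (permutation p = 5e-05, adjusted p = 0.000784) and its rho 0.664 (permutation p = 0.00012, adjusted p = 0.00163), with r = 0.591 without the 2 tumors farthest from its median. Of the 14 T-cell genes, 13 were called positive, beside 6.44% of all genes at the same p, and CD8A was not by r (0.376, adjusted p = 0.11) but was by rho (0.480, adjusted p = 0.0355). Markers of other cell types were called positive too, 5 of 7 of B and plasma cells, 3 of 5 of macrophages and 4 of 4 of endothelium. The endothelial markers had r from 0.515 to 0.566, with 3 of 4 called by rho, and without the 2 tumors none was called (r from 0.305 to 0.355, adjusted p = 0.219 to 0.330). The part of these cell types in the IL2RA relations was not tested. The 5 nearest genes by rho were JAK3 (0.844), HIVEP3 (0.839), LCP2 (0.828), ZEB2 (0.812) and PIK3CG (0.811). JAK3 is the kinase bound to the shared gamma chain of the interleukin-2 receptor, LCP2 an adaptor of T-cell receptor signaling and PIK3CG a leukocyte kinase.

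Of 16 regulatory T-cell genes, 12 were called positive with IL2RA and 1 negative. With CCR4, CCL22 and CCL17, 6, 8 and 0 were called positive. By rho the positive numbers were 9 for IL2RA and 7, 5 and 0 for the others. IL2RA was also called positive with more genes in general, 6.44% of all genes against 3.29%, 2.34% and 1.8%. Differences between members were not tested. With IL2RA, TNFRSF4 (OX40) had r = 0.743, PRDM1 0.732, IL10 0.688, CCR8 0.571 and TNFRSF18 0.562, with adjusted p from 0.000386 to 0.00981. Without the 2 tumors CCR8 was no longer called (r = 0.478, adjusted p = 0.0600). NT5E, which encodes the adenosine-forming enzyme CD73, was the negative one (r = -0.525, adjusted p = 0.0146). In the interleukin-2 receptor pathway 9 of 23 genes were called positive, among them IL2RB (r = 0.706, adjusted p = 0.000456) and SOCS1 (r = 0.709, adjusted p = 0.000456). The dendritic cell list gave 9 of 16, with the survival gene BIRC3 at r = 0.743 (adjusted p = 0.000386). Among the chemokine receptors 6 of 16 were called positive, and CCR7 had r = 0.779 (adjusted p = 0.000386). Of the urothelial markers, UPK2, a protein of umbrella cells, had r = -0.624 (adjusted p = 0.00261) and r = -0.552 without the 2 tumors (adjusted p = 0.0212). FOXA1, a luminal transcription factor, had r = -0.550 (adjusted p = 0.0141), but was called neither by rho (-0.321, adjusted p = 0.1998) nor without the 2 tumors (r = -0.346, adjusted p = 0.235). Over all 120 list genes, 64 were called positive with IL2RA and 36 without the 2 tumors farthest from its median.

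With CCL22, 30 of the 120 list genes were called positive and 3 negative, beside 2.34% of all genes called positive. Without tumors 20 and 6, or 20 and 24, 3 were called positive and 1 negative, but without tumors 20 and 16 these numbers were 25 and 1. Its r with the T-cell mean was 0.407 (permutation p = 0.028, adjusted p = 0.0772) and its rho 0.326 (permutation p = 0.0853, adjusted p = 0.192), with r from 0.165 to 0.431 over those 3 choices. CCR7 had the highest r of the list genes (0.666, adjusted p = 0.00119), followed by the dendritic cell transcription factor IRF8 (0.621, adjusted p = 0.00261). Over the 3 choices the r of CCR7 ran from 0.508 to 0.793 and that of IRF8 from 0.439 to 0.632. CCR7 was called in all 3 (adjusted p at most 0.0367), while IRF8 was called only without tumors 20 and 16 (adjusted p = 0.00665) and not in the other 2 (adjusted p = 0.0724 and 0.0937). All 4 endothelial markers were called positive (r from 0.455 to 0.522), and 3 by rho. Without tumors 20 and 16, 3 of the 4 were called (r of all 4 from 0.471 to 0.575). In the other 2 choices none was (r from 0.264 to 0.382, adjusted p = 0.1701 to 0.410). UPK2 was called negative (r = -0.601, adjusted p = 0.00449), with r from -0.550 to -0.496 over the 3 choices. The nearest genes by rho were DUSP14 (0.694), SPATA5 (0.672), ARID5A (0.671), HAVCR2 (0.649) and EVA1A (0.632). HAVCR2 encodes TIM3, an inhibitory receptor of T cells and macrophages.

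CCL17 stood apart from the leukocyte genes in its values. Of 120 list genes, 1 was called, beside 1.8% of all genes called positive at the same p. STAT6 was that gene (r = 0.459, permutation p = 0.0129, adjusted p = 0.0424), with rho = 0.372 (adjusted p = 0.129) and r = 0.335 without the 2 tumors farthest from the CCL17 median. IL4R was called by rho (0.502, adjusted p = 0.0293) and not by r (0.423, adjusted p = 0.063), and IL1RL1 had r = 0.442 (adjusted p = 0.0507). No T-cell gene was called by the permutation test, and 0 of 14 had an unadjusted p under 0.05, with r from -0.267 to 0.101. The r with the T-cell mean was -0.136 (95% interval -0.479 to 0.243, permutation p = 0.479, adjusted p = 0.66) and the rho -0.137 (permutation p = 0.476, adjusted p = 0.657), with r = -0.137 without those tumors. The 5 nearest genes by rho were GGPS1 (0.646), HACD4 (0.633), CAV2 (0.625), DDX50 (0.611) and TOMM20 (0.604), which encode a prenyl lipid synthase, a fatty acid enzyme, a caveolin, an RNA helicase and a mitochondrial import receptor.

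**Figure D4:**
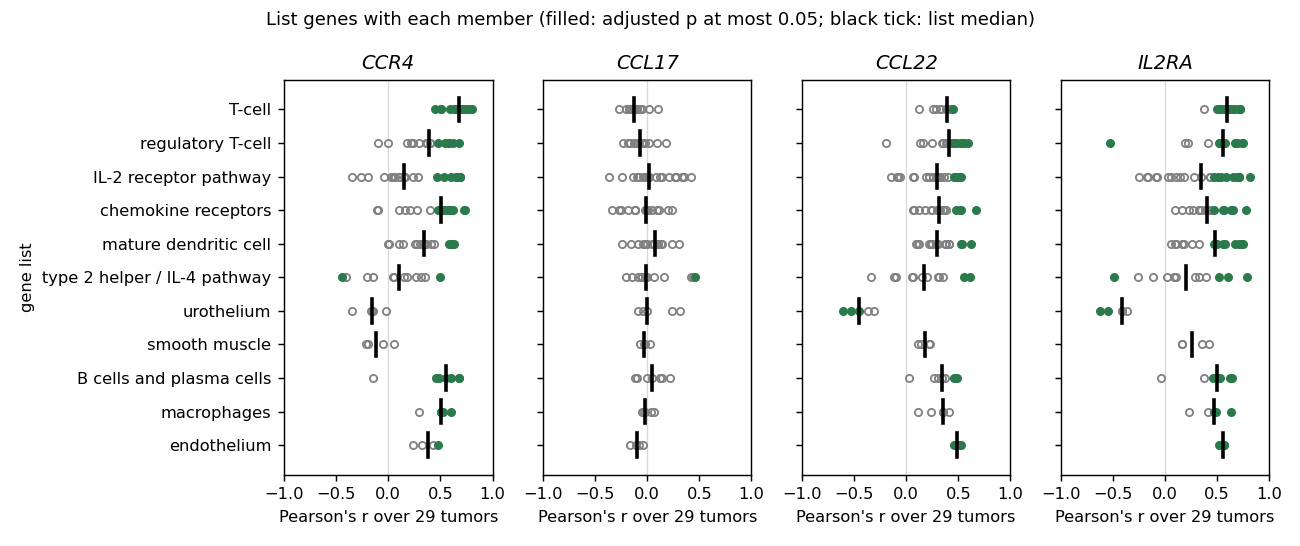
Pearson's r over the 29 tumors (horizontal axis) of each list gene with CCR4, CCL17, CCL22 and IL2RA, by gene list (vertical axis); filled points have an adjusted p of at most 0.05 and black ticks are list medians. For the T-cell list the medians are 0.681 with CCR4, -0.124 with CCL17, 0.395 with CCL22 and 0.590 with IL2RA.

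The study set immune genes against a division of the tumors into basal and luminal subtypes. The labels give no subtype, so the members were set against the first principal component of 639 subtype genes over the tumors, which carried 25.1% of their variance and was signed so that luminal genes fell along it. The study chose those genes on these tumors, so the component is not independent of them. IL2RA rose along it (r = 0.621, permutation p = 0.00023, adjusted p = 0.00236, rho = 0.625, permutation p = 0.00036, adjusted p = 0.00361), with r = 0.564 without the 2 tumors farthest from its median. With the T-cell mean regressed out of both, r was 0.416 (adjusted p = 0.0748). CCL22 had r = 0.399 (permutation p = 0.0323, adjusted p = 0.0857) and rho = 0.364 (permutation p = 0.0529, adjusted p = 0.138), with r from 0.271 to 0.505 over the 3 choices of 2 tumors farthest from its median (adjusted p = 0.402 to 0.0344). With the T-cell mean regressed out, r was 0.233 (adjusted p = 0.384).

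CCR4 had r = 0.380 with the component (permutation p = 0.0436, adjusted p = 0.11) and rho = 0.391 (permutation p = 0.0372, adjusted p = 0.106), with r from 0.342 to 0.661 over the 6 choices of 2 tumors (adjusted p = 0.246 to 0.00293). Over the 25 tumors with CCR4 above its lowest value, r was 0.687 (adjusted p = 0.00142). With the T-cell mean regressed out of both it was -0.0642 (adjusted p = 0.855). CCL17 had r = 0.0037 (95% interval -0.363 to 0.370, permutation p = 0.985, adjusted p = 0.997) and rho = 0.0537 (permutation p = 0.782, adjusted p = 0.871), with r = 0.201 without its 2 farthest tumors.

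The olfactory receptor share of each tumor had r from -0.120 to 0.189 with the 4 genes over the tumors, and the worth of 1 read pair had r from -0.0285 to 0.319. None of these 8 relations was called by the permutation test, and 0 had an unadjusted p under 0.05. By the study's methods all libraries were sequenced together, so there were no batches to compare within.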

How the data were processed

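RNA of 29 iUC tumors and 4 normal mucosa samples was depleted of ribosomal RNA and sequenced as paired reads. The authors aligned reads to CanFam3.1 with COBWeb in Strand NGS, quantified annotated genes and normalized them by TMM and, separately, by DESeq, the latter tool also named in the submitters' processing notes. The deposited values are normalized values on the log2 scale, centred on each gene's median. A count test needs counts and was not run, total counts are unknown and no pseudocount was added. An incomplete last line was left out of both tables.

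Where the lowest value of a gene was shared by at least 2 samples (tolerance 0.0001), that value was taken as a normalized value of 1, and each value on that scale was divided by the worth of 1 read pair, the commonest low step of a sample (median 3.24 in normals, 2.06 in tumors). The steps fell within 0.05 of a multiple of 0.5 read pairs for CCR4 in 18 of 25 tumors above the lowest value and for CCL22 in 16 of 26, and in 0 and 2 of 4 normals. Olfactory receptor genes are symbols beginning with OR and a digit.

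Tumors were compared with normals by limma 3.58.1 in R 4.3.3 (trend, Benjamini-Hochberg over all tested genes, adjusted p at most 0.05 and 2-fold), for genes above the lowest value in at least 4 samples, and by two-sided exact permutation tests. Correlations used 100000 permutations, and a gene of the background counts was called at the largest raw p called in the family, 0.0158. Scripts were tested on simulated data. The labels do not state that the normals came from separate dogs, so p-values measure the spread between these samples. RefSeq names of another dog assembly gave chromosomes and neighbours. Python 3.11.15, numpy 2.4.6, pandas 2.3.3, scipy 1.17.1 and matplotlib 3.10.9 were used.

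The 4 genes and the lists were chosen with earlier results of these data known. Named genes are the 4 members, set markers, the 2 largest rises and falls past both thresholds in each list, and the 5 genes nearest to each member by rho. Genes named beside them (IKZF4, IL5, TSLP, IL13, IL25, STAT6, GPR83, IL10, TNFRSF4, NT5E, SOCS1, BIRC3, STAT5A, STAT5B, IRF8, UPK2 and other list genes called with a member) and tumors named singly were chosen after their values were seen. The alternatives covered the other table, other filters, fits and tests, and samples left out. Leaving out each tumor, the 3 tumors with most olfactory receptor genes, or every choice among tumors tied as farthest from a median, was added after the data were seen. Promoters were not analysed here, and 1 gene that the rule names is not reported here.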

Additional observations from a re-analysis of the deposited data

How the results depend on the processing

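No paired analysis was possible because the tumors and normals came from different dogs and share no replicate numbers in the labels. The cause of each change below was not tested. The genes called higher numbered 2615, but 1377 in the DESeq-normalized table and 5603 with no fold-change threshold. Those called lower numbered 11206, but 5981 when a gene had to lie above the lowest value in at least 15 samples, a filter that leaves 18898 genes. The median change was then -0.06 in place of -0.84. Leaving out each normal gave 2222 to 2695 higher and 10596 to 11067 lower, and each tumor 2546 to 2639 and 11143 to 11231.

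Directions of called results did not reverse. The CCR4 change lost its call by the medians (-2.22) and without normal A, with a range of -2.71 to -2.06 without each normal and -2.48 to -2.29 without each tumor. The CCL17 change lost its call in the DESeq-normalized table (2.20), with group weights (2.50), by the medians (2.47), without the 3 tumors rich in olfactory receptor genes (2.42) and without each normal (2.31 to 2.71), and kept it without each tumor (2.34 to 2.62). Relative to T-cell genes it was 2.66 with 5 genes and 2.64 to 3.08 without each normal, and missed the threshold in each of these. CCL22 ranged from -3.29 to -3.19 without each normal and -3.35 to -3.13 without each tumor, and IL2RA from -0.53 to -0.35 and -0.55 to -0.33.

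In what follows, the 2 tumors are those farthest from the median, with ties broken in order of deposit unless tumors are named. Over the tumors, CCR4 with CCL22 passed only where both were above the lowest value (r = 0.554). CCR4 with IL2RA passed by rho (0.481), without the 2 tumors (0.554) and above the lowest value (0.568), with 0.304 to 0.490 without each tumor, passing without tumor 3, 8 or 15. Among the tied tumors it passed also without 15 and 17 (0.482) or 15 and 29 (0.490), and missed the threshold for the other 3 choices. CCL22 with IL2RA missed the threshold without the 2 tumors (0.323), without 20 and 24 (0.439) and with T-cell genes regressed out (0.441), with 0.445 to 0.655 without each tumor, missing it without tumor 20. With the component, CCR4 passed without the 2 tumors (0.519), 15 and 17 (0.5004) or 15 and 29 (0.661) and above the lowest value (0.687), with 0.326 to 0.516 without each tumor, passing without tumor 15 or 29. CCL22 ranged from 0.320 to 0.531, passing without tumor 16, and 0.505 without tumors 16 and 20, also passing. With T-cell genes regressed out, CCR4 had r = -0.232 with IL2RA, -0.0251 with CCL22 and -0.0642 with the component, opposite in sign to r over all tumors, and missed the threshold. IL2RA had 0.416 with T-cell genes regressed out and 0.556 to 0.666 without each tumor. List genes called positive numbered 0 for CCL17, 3 for CCL22 (also 3 without 20 and 24) and 36 for IL2RA without the 2 tumors, and 17 for CCL22 by rho.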
